A study of Arabidopsis thaliana with 36 samples.

Results

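The 10 listed loci of Arabidopsis thaliana iron homeostasis were followed across 36 RNA sequencing libraries, as 10 of the 32833 loci in each of the 2 deposited count tables. They were the transcription factor genes bHLH38, bHLH39, bHLH100, bHLH101 and FIT, the root iron uptake genes IRT1 and FRO2, the nicotianamine synthase genes NAS3 and NAS4, and the ferritin gene FER1. The set was chosen by measured values, the CPM of NAS3, which was high in stp1/4/13 plants 24 h after flg22, so every value of stp1/4/13 at 24 h is given as a description with no test, and so are comparisons that rest on NAS3 in Col at 24 h.

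Plants labelled Col (Col-0, the wild type), stp1/4/13 (a triple mutant of the hexose transporter genes STP1, STP4 and STP13) and fls2 (a mutant of the receptor kinase FLS2, which perceives the flagellin peptide flg22) were all treated with 1 µM flg22 in liquid medium with 25 mM sucrose. They were harvested 2, 10 and 24 h later, having been about 7 days old at treatment. In a second experiment Col plants were harvested at 24 h, without flg22, from groups titled 2DG_1mM, Suc_25mM and Suc_0mM, where 2DG is 2-deoxy-d-glucose, a glucose analogue that is phosphorylated but poorly metabolised. Read by title, the 2DG_1mM group had 1 mM 2DG and no sucrose. It differs from Suc_0mM in 2DG alone, and from Suc_25mM in both 2DG and sucrose. Each of the 12 groups held 3 libraries, 1 from each of 3 independent trials, so p-values measure the spread between those trials. The labels name no group without flg22 in the first experiment, which leaves fls2 as its background, and differences from fls2 include any effect of that genotype itself.

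Iron is taken up from soil by the root epidermis, where the ferric chelate reductase FRO2 reduces ferric iron and the transporter IRT1 imports the ferrous form. Both genes are activated by FIT acting in pairs with the closely related bHLH38, bHLH39, bHLH100 and bHLH101, whose own genes are switched on by iron deficiency in roots and shoots. Nicotianamine synthases make the metal chelator that moves iron and zinc within the plant, and ferritins store iron in plastids, with FER1 a classical marker of iron excess.

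Total counts ranged from 8054500 to 20111338 per library, and levels are given as CPM, the count scaled to a common library total. Differences are log2 fold changes ± standard error from edgeR's quasi-likelihood test with 3 libraries a group, called at a Benjamini-Hochberg adjusted p below 0.05 over all genes tested. The genotype labels were met by the counts: FLS2 had at most 0.226 CPM in the fls2 libraries and at least 11.9 CPM in those of Col after flg22, and the STP13 level in stp1/4/13 was between 7.36 and 15.9 CPM, against 82.9 to 335 CPM in Col at the same times. Against fls2 at 2 and 10 h, STP1 was lower in stp1/4/13 (-2.85 ± 0.67 and -3.26 ± 0.28, edgeR adjusted p = 0.0042 and 4.2e-08). STP13 was not called there (0.55 ± 0.30 and -0.53 ± 0.24, edgeR adjusted p = 0.19 and 0.067), and STP4 was not lower (0.05 ± 0.23 and 0.44 ± 0.14). Both were higher in Col than in fls2 at those times. In 6 libraries the sample title and the treatment entry disagree: where one says 2DG_1mM, the other says Suc_25mM. Groups follow the titles, as the column names of the count tables do, and values under the other reading are given with the sucrose and 2DG results. RNA came from plants with no tissue separated, so fewer cells of a type and less RNA per cell cannot be told apart.

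**Figure D1:**
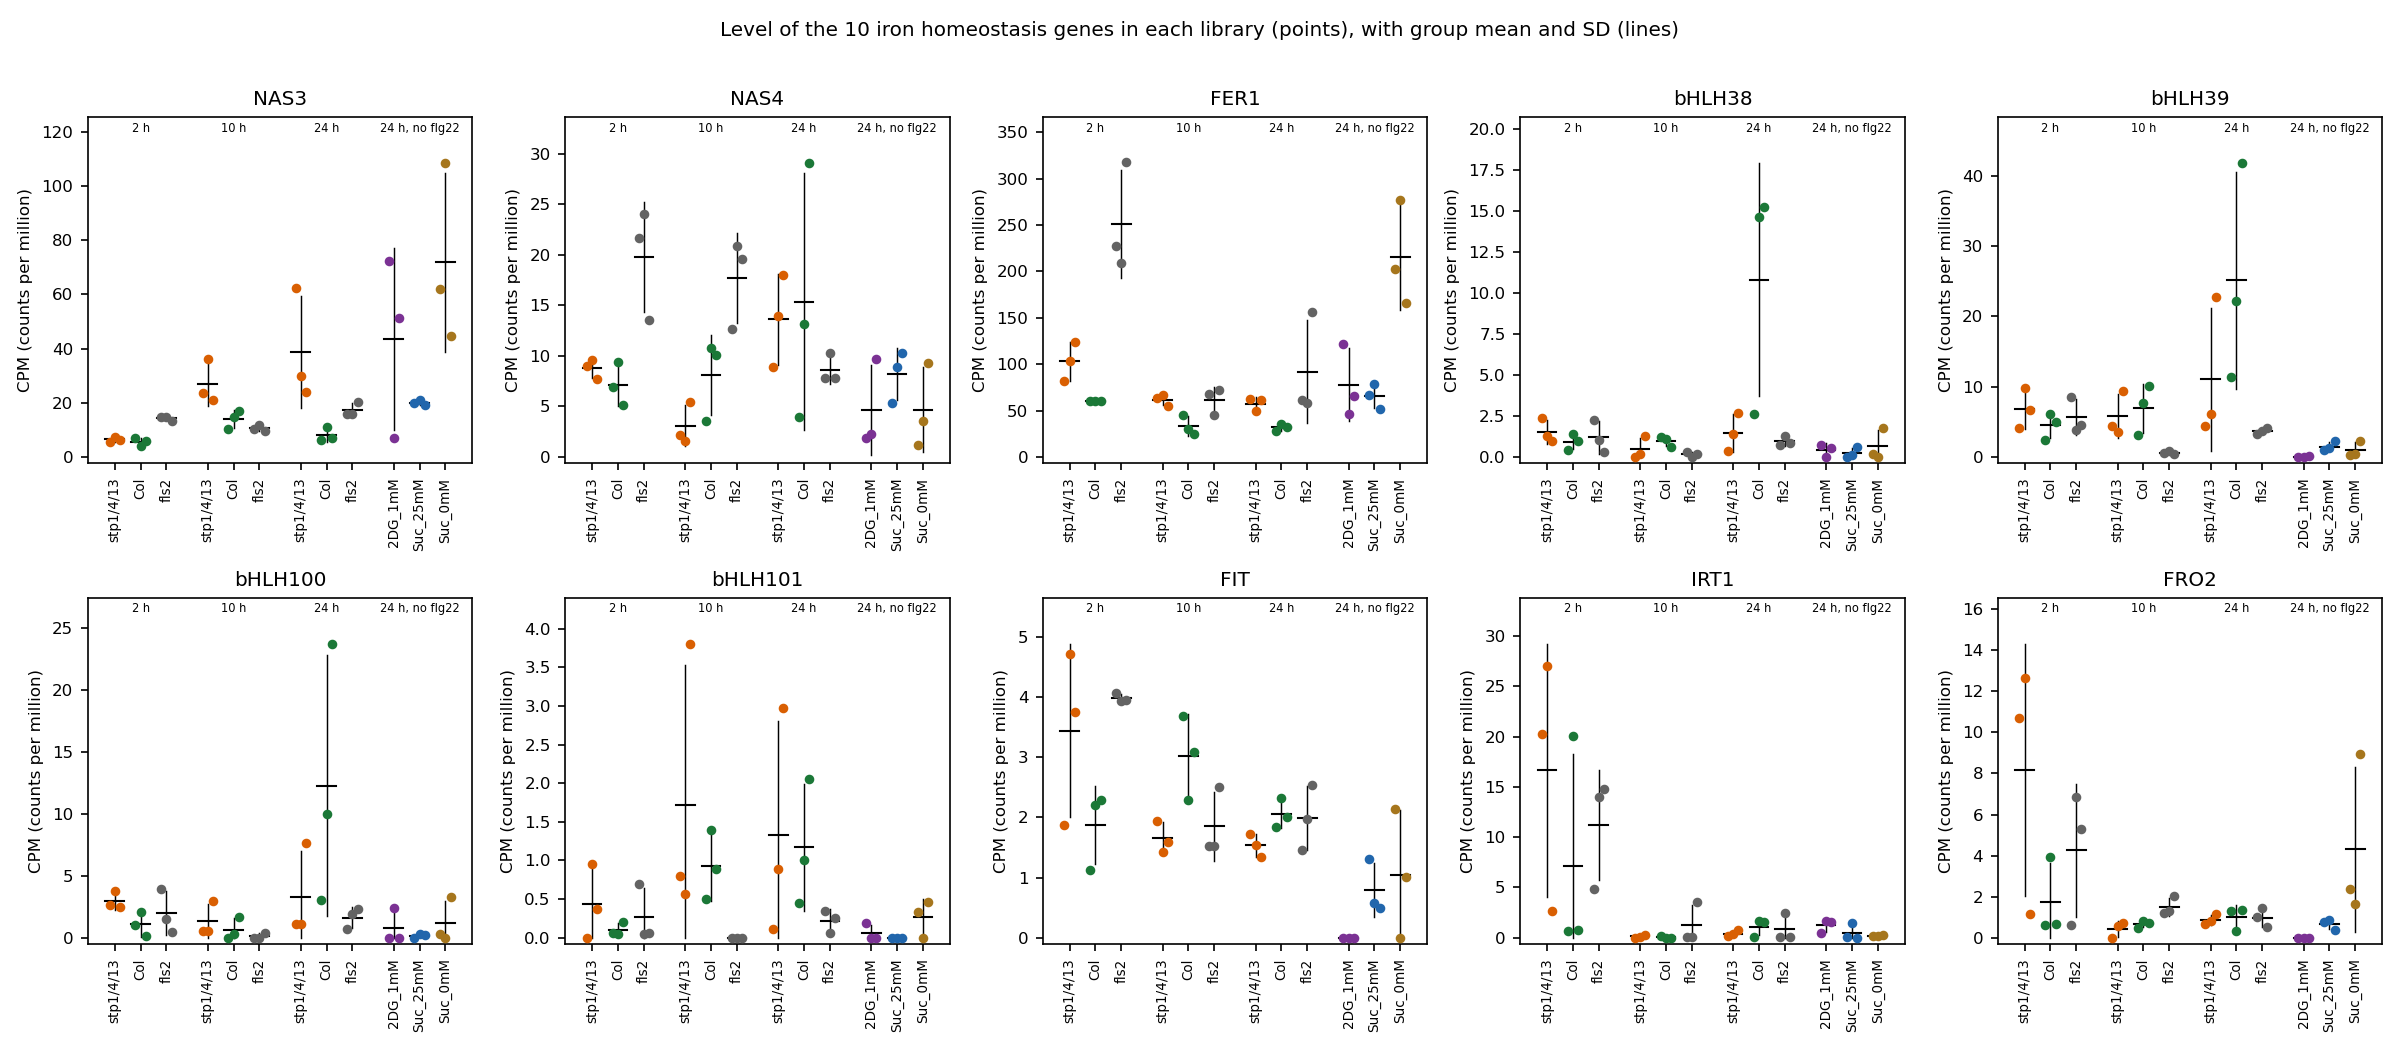
Level of each of the 10 genes in CPM (vertical axis, linear, a separate scale for each gene) in the 3 libraries of each of the 12 groups (points), with the group mean (horizontal line) and SD (vertical line). NAS3 was highest in Suc_0mM, FER1 in fls2 at 2 h, and bHLH38, bHLH39 and bHLH100 in Col at 24 h.

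NAS3 (AT1G09240, chromosome 1, 2984829 to 2986231, plus strand in TAIR10.1), which encodes a nicotianamine synthase expressed mainly in shoots, was high in the sugar transporter mutant late after flg22 and low in the wild type. At 24 h it had 62.4, 29.9 and 23.9 CPM in stp1/4/13, against 6.21, 11 and 7.02 CPM in Col and 15.7, 15.9 and 20.2 CPM in fls2. The lowest stp1/4/13 library stood above the highest library of either other genotype, and these values chose the set. The fitted difference was 2.25 ± 0.31 for stp1/4/13 over Col and 1.23 ± 0.30 over fls2, with no test. Without stp1/4/13 library 1, the highest, it was 1.69 over Col and 0.66 over fls2. Col over fls2 was -1.02 ± 0.31 at 24 h, also a description.

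At 10 h, which the choice of genes did not use, NAS3 was higher in stp1/4/13 than in both other genotypes. It had 23.6, 36.1 and 21.1 CPM in stp1/4/13, against 10.3, 14.6 and 16.8 CPM in Col and 10.3, 11.9 and 9.71 CPM in fls2. All 3 stp1/4/13 libraries stood above all 6 others. The difference was 1.38 ± 0.24 over fls2 (edgeR adjusted p = 0.00012) and 1.04 ± 0.24 over Col (edgeR adjusted p = 0.0081). The call over Col was lost without Col library 1 (edgeR adjusted p = 0.053) or without stp1/4/13 library 2 (edgeR adjusted p = 0.062), within 0.00049 to 0.062 over all 11 alternatives. Col over fls2 was 0.34 ± 0.24 for NAS3 at 10 h, short of the threshold (edgeR adjusted p = 0.26).

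At 2 h the order was another one: NAS3 was lower in stp1/4/13 and in Col than in fls2. It had 5.66, 7.39 and 6.32 CPM in stp1/4/13, 6.90, 3.98 and 5.86 CPM in Col, and 14.9, 14.7 and 13.4 CPM in fls2, and no library of the first pair of genotypes reached the fls2 range. Col differed from fls2 by -1.21 ± 0.31 (edgeR adjusted p = 0.0054), a call kept under all 11 alternatives. For stp1/4/13 over fls2 the value was -1.04 ± 0.31 (edgeR adjusted p = 0.019), lost without stp1/4/13 library 1 (0.071) or 3 (0.065) or fls2 library 2 (0.057). stp1/4/13 and Col differed by 0.16 ± 0.32 at 2 h (edgeR adjusted p = 0.97). The summed level of 10 green shoot markers (photosynthesis genes such as LHCB1.1 and RBCS1A) was in part ordered the same way. At 2 h it was 7851 to 14321 CPM in stp1/4/13, 4691 to 7968 CPM in Col and 15011 to 17959 CPM in fls2, and 9 of the 10 were called lower in Col than in fls2. At 10 h it was 14497 to 18291 CPM in stp1/4/13, 7031 to 9826 CPM in Col and 12219 to 16921 CPM in fls2, with 9 of 10 higher in stp1/4/13 than in Col. At 24 h it was 13566 to 17024 CPM in stp1/4/13, 6082 to 11794 CPM in Col and 12248 to 16097 CPM in fls2. RBCS1A was the largest part of this sum in every group, with 24 h means of 7788 CPM in stp1/4/13, 4592 CPM in Col and 9596 CPM in fls2. RBCS1A was also the only marker of the 10 called lower in Col than in fls2 at 24 h (-0.98 ± 0.23, edgeR adjusted p = 0.0055). Against fls2, fewer markers were called in stp1/4/13: 2 of 10 lower at 2 h (list median -0.41) and 5 of 10 higher at 10 h (list median 0.27). Between stp1/4/13 and Col at 2 h, 0 of 10 were called (list median 0.85). None of the shoot markers was at 0 in any group, and their part in the NAS3 result was not tested.

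Over the 12 groups NAS3 had its highest mean in Suc_0mM, at 71.8 ± 33.1 CPM, followed by 2DG_1mM (43.5 ± 33.5), stp1/4/13 at 24 h (38.8 ± 20.7) and stp1/4/13 at 10 h (26.9 ± 8.01) (SD, n = 3). The libraries of these 4 groups overlapped from each to the next. Suc_25mM followed at 20.1 ± 0.908 CPM, below the range of stp1/4/13 at 10 h, then fls2 at 24 h (17.3 ± 2.50), 2 h (14.3 ± 0.832) and, after Col at 10 h (13.9 ± 3.28), fls2 at 10 h (10.6 ± 1.13). The lowest means were those of Col at 24 h (8.08 ± 2.57), stp1/4/13 at 2 h (6.46 ± 0.873) and Col at 2 h (5.58 ± 1.48). From fls2 at 2 h down, each group overlapped the next in this order. Groups from different experiments were not tested against each other.

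The genes whose levels followed NAS3 most closely over the 12 group means of log2(CPM + 0.5), among 17100 genes with a mean of at least 5 CPM in some group, were PDE320 (Pearson r = 0.937), AT3G03150 (0.929), SUVH9 (0.919), AT1G18773 (0.916) and CYP81D4 (0.909). The 12 means come from 12 groups of separate libraries in both experiments, and the values are descriptive. None of the other iron genes of the set with enough counts came near: the closest was FER1 (r = 0.351, rank 3018), and NAS4 had r = -0.470.

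NAS4 (AT1G56430, chromosome 1, 21136835 to 21138277, plus strand), another nicotianamine synthase that is induced by iron deficiency in roots, was lower in stp1/4/13 and Col than in fls2 at 10 h, and lower in Col than in fls2 at 2 h. At 2 h it had 8.98, 9.58 and 7.75 CPM in stp1/4/13, 6.95, 9.39 and 5.10 CPM in Col, and 21.6, 24.0 and 13.6 CPM in fls2. At 10 h it had 2.21, 1.62 and 5.39 CPM in stp1/4/13, 3.58, 10.7 and 10.0 CPM in Col, and 12.6, 20.8 and 19.6 CPM in fls2. At both times every library of fls2 stood above those of the other genotypes. Col over fls2 was -1.33 ± 0.45 at 2 h (edgeR adjusted p = 0.027) and -1.18 ± 0.39 at 10 h (edgeR adjusted p = 0.017). Neither call was kept without certain single libraries: the 2 h one had edgeR adjusted p = 0.077 without Col library 1, 0.10 without Col library 3, 0.058 without fls2 library 1 and 0.10 without fls2 library 2, and the 10 h one 0.082 without Col library 1 and 0.066 without fls2 library 2.

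stp1/4/13 over fls2 at 10 h was -2.51 ± 0.42 for NAS4 (edgeR adjusted p = 8.6e-05), kept under every alternative run, so that the pair of synthase genes moved in opposite directions in that comparison. Against Col at 10 h NAS4 just missed the threshold (-1.34 ± 0.43, edgeR adjusted p = 0.051) and passed under 7 of 11 alternatives, the replicate number as a block among them (edgeR adjusted p = 0.025). At 24 h the 3 Col libraries held 3.91, 13.1 and 29.1 CPM of NAS4, a wider spread than in stp1/4/13 (8.90, 14 and 17.9 CPM) or fls2 (7.84, 10.3 and 7.77 CPM). Col over fls2 was then 0.88 ± 0.44 (edgeR adjusted p = 0.19), and 0.018 without Col library 1. The change of the Col over fls2 difference between 24 h and 2 h was 2.21 ± 0.63 for NAS4 (edgeR adjusted p = 0.030). This call was lost without any of 7 single libraries and in a fit of the 4 groups alone (edgeR adjusted p = 0.0022 to 0.11 over the alternatives).

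FER1 (AT5G01600, chromosome 5, 227953 to 230051, minus strand), the main ferritin gene of leaves, was lower in Col than in fls2 at all 3 times. At 2 h it had 81.4, 103 and 124 CPM in stp1/4/13, 60.9, 60.8 and 59.9 CPM in Col, and 228, 209 and 318 CPM in fls2, so that the 3 genotypes did not overlap. At 10 h it had 63.3, 66.5 and 55.4 CPM in stp1/4/13, 45.5, 30.2 and 24.5 CPM in Col, and 67.4, 45.6 and 72.1 CPM in fls2. At 24 h it had 62.0, 49.4 and 61.2 CPM in stp1/4/13, 27.8, 35.8 and 31.9 CPM in Col, and 61.9, 57.9 and 156 CPM in fls2. At each time the highest Col library stood below the lowest fls2 library, at 10 h by less than 1 CPM.

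Col over fls2 was -1.89 ± 0.28 for FER1 at 2 h (edgeR adjusted p = 3.2e-05), -0.93 ± 0.21 at 10 h (edgeR adjusted p = 0.0011) and -1.44 ± 0.28 at 24 h (edgeR adjusted p = 0.0012), each kept under all 11 alternatives. The 24 h value was -0.84 without fls2 library 3, the highest. stp1/4/13 stood between the other genotypes at 2 h, at -1.17 ± 0.27 against fls2 (edgeR adjusted p = 0.0036) and 0.71 ± 0.27 against Col (edgeR adjusted p = 0.39). At 10 h its difference from fls2 did not pass (0.04 ± 0.20, edgeR adjusted p = 0.87, no larger than its error), and it was above Col by 0.97 ± 0.21 (edgeR adjusted p = 0.0051), a call kept under all 11 alternatives. At 24 h the fitted values, which carry no test, were 0.83 ± 0.27 over Col and -0.61 ± 0.27 over fls2.

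FER3 and FER4, ferritin genes also expressed in green tissue, were likewise lower in Col than in fls2 and were looked at after their values were seen. FER3 had 44.4, 40.5 and 46.9 CPM in Col and 97.2, 109 and 110 CPM in fls2 at 2 h. Col over fls2 for FER3 was -1.11 ± 0.14 at 2 h (edgeR adjusted p = 6.9e-06), -1.99 ± 0.16 at 10 h (edgeR adjusted p = 2.0e-08) and -1.07 ± 0.14 at 24 h (edgeR adjusted p = 3.8e-05), all kept under all 11 alternatives. FER4 gave -1.16 ± 0.22 at 2 h, -1.0 ± 0.24 at 10 h and -0.69 ± 0.22 at 24 h (edgeR adjusted p = 0.00037, 0.0018 and 0.033), the last lost in 4 of 11 alternatives. The seed ferritin gene FER2 was not called at 2, 10 or 24 h (0.30 ± 0.40, -0.36 ± 0.45 and -0.49 ± 0.40, edgeR adjusted p = 0.59, 0.54 and 0.44). In stp1/4/13 over fls2 FER3 was lower at 2 h (-0.87 ± 0.14, edgeR adjusted p = 0.00014) and at 10 h (-1.49 ± 0.16, edgeR adjusted p = 3.9e-07), where FER1 was not called. The shoot marker values given for NAS3 moved with the ferritin genes too: of the 10 shoot markers, the edgeR test called 9 lower in Col at 2 h, 6 at 10 h and 1 at 24 h relative to fls2, with list medians of -1.20, -0.95 and -0.46, and their part was not tested. A long non-coding RNA gene on the other strand, AT5G01595, overlaps 1334 bases of FER1, and its mean was at most 0.336 CPM in any group. Whether the counting kept strand is not given, so this low level cannot show that the overlap left the FER1 counts unchanged.

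**Figure D2:**
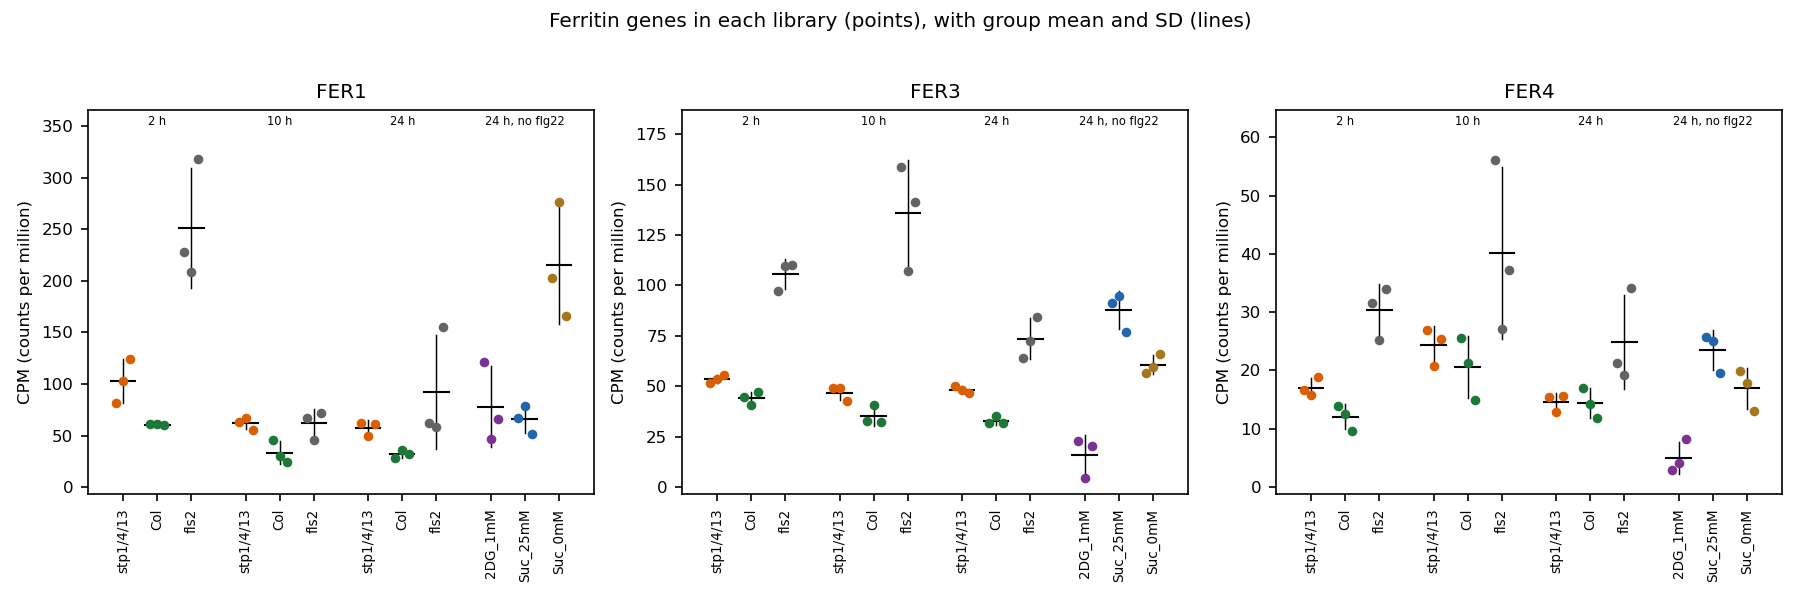
Levels in CPM (vertical axis, linear) of FER1, FER3 and FER4 in the 3 libraries of each group (points), with group mean (horizontal line) and SD (vertical line). At 2, 10 and 24 h every Col library stood below every fls2 library for all 3 genes.

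The 4 genes of subgroup Ib, bHLH38, bHLH39, bHLH100 and bHLH101, are close relatives. Of these, bHLH38 (AT3G56970), bHLH39 (AT3G56980) and bHLH100 (AT2G41240) were called higher in Col than in fls2 at 24 h, and their upstream sequences are shown because they moved together at that time. Each line holds the 250 bases before the annotated gene start, 5′ to 3′ on the gene's strand (minus for all 3), in RefSeq's TAIR10.1, with the G-box CACGTG, a core bound by many bHLH and bZIP proteins, in capitals. The places are chr3:21085246-21085495, chr3:21087711-21087960 and chr2:17199455-17199704.
bHLH38: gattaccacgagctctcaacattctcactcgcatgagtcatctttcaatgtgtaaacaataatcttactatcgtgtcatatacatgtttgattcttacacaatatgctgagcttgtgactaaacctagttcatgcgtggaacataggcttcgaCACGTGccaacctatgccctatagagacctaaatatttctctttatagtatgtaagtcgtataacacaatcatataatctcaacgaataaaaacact
bHLH39: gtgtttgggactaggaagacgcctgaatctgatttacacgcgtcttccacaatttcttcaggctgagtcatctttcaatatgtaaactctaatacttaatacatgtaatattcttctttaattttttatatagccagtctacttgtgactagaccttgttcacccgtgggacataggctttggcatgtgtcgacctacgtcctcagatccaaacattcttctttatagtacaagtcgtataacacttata
bHLH100: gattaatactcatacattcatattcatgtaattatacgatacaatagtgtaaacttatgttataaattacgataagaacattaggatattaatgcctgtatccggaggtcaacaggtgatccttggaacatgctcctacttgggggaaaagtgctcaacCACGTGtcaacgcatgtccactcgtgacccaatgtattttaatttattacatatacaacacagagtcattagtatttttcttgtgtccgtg
The G-box lies with its first base 97 bases before the start of bHLH38 (position -97) and 91 before that of bHLH100 (position -91), and the letters CACGTG are not in the window of bHLH39. Searched from 250 bases before to 50 after the gene start, where the word reads alike on both strands, it stood in 2 of the 10 genes, against 7.68% of 27443 protein-coding genes. The core of the W-box, TTGAC, sought on both strands, stood in 5 of the 10 (FIT, FRO2, NAS3, FER1 and bHLH100), against 50.5% of those genes. These are matches of letters only.

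At 24 h bHLH39 had 4.39, 6.07 and 22.7 CPM in stp1/4/13, 11.4, 22.3 and 41.8 CPM in Col, and 3.22, 3.75 and 4.09 CPM in fls2. bHLH38 had 0.356, 1.39 and 2.68 CPM in stp1/4/13, 2.63, 14.6 and 15.2 CPM in Col, and 0.760, 1.27 and 0.829 CPM in fls2 at that time. bHLH100 had 1.07, 1.09 and 7.60 CPM in stp1/4/13, 3.02, 10.0 and 23.7 CPM in Col, and 0.702, 1.91 and 2.28 CPM in fls2. For all 3 genes every Col library stood above every fls2 library, while the Col libraries ranged over several-fold among themselves.

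Col over fls2 at 24 h was 3.55 ± 0.73 for bHLH38 (edgeR adjusted p = 0.0022) and 2.82 ± 0.55 for bHLH39 (edgeR adjusted p = 0.0014), both kept under all 11 alternatives. For bHLH100 it was 2.95 ± 0.87 (edgeR adjusted p = 0.024), lost without Col library 3 (0.10), fls2 library 1 (0.077) or fls2 library 2 (0.070). bHLH101 (AT5G04150, chromosome 5, 1138410 to 1139633, minus strand) had 0.447, 1.00 and 2.06 CPM in Col and 0.351, 0.0577 and 0.259 CPM in fls2, and did not pass (2.41 ± 1.13, edgeR adjusted p = 0.15). The fitted differences of stp1/4/13 from Col at 24 h, with no test, were -2.88 ± 0.70 for bHLH38, -1.21 ± 0.51 for bHLH39, -1.93 ± 0.83 for bHLH100 and 0.16 ± 0.98 for bHLH101.

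At 2 h none of the 4 was called, with Col over fls2 at -0.18 ± 0.75 for bHLH38, -0.16 ± 0.54 for bHLH39, -0.73 ± 0.92 for bHLH100 and -1.11 ± 1.37 for bHLH101 (edgeR adjusted p = 0.88, 0.85, 0.58 and 0.57). The change of that difference between 24 h and 2 h was 3.72 ± 1.03 for bHLH38 (edgeR adjusted p = 0.026) and 2.98 ± 0.76 for bHLH39 (edgeR adjusted p = 0.017). It missed the threshold for bHLH100 (3.68 ± 1.26, edgeR adjusted p = 0.071) and bHLH101 (3.52 ± 1.77, edgeR adjusted p = 0.24). Without Col library 1 at 2 h the bHLH38 value had edgeR adjusted p = 0.072 and the bHLH39 value 0.051, and without fls2 library 1 at 2 h 0.11 and 0.050. The bHLH38 call was also lost without Col library 2 or 3 at 24 h (0.064 and 0.053) or fls2 library 1 at 24 h (0.059). bHLH38, bHLH39 and NAS4 were the members whose Col over fls2 difference changed between 2 h and 24 h. They were 3 of the 9 that carry a test here, all positive, where 10.5% of all genes were called, 4.5% positive and 6.04% negative. In the same test 8 of 12 root markers were called negative and 3 of 10 shoot markers positive, with list medians of -1.69 and 0.87, and their part was not tested.

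Within Col, 24 h over 2 h was 3.38 ± 0.72 for bHLH38, 2.36 ± 0.54 for bHLH39 and 3.39 ± 0.91 for bHLH100 (edgeR adjusted p = 0.0019, 0.0030 and 0.0083), each kept under all 11 alternatives. bHLH101 passed narrowly (3.28 ± 1.23, edgeR adjusted p = 0.049), and 8 of 10 alternatives ended that call, leaving out any of its 6 libraries (0.052 to 0.15) and the replicate number as a block (0.051) among them. Of the 9 members that carry a test here, these 4 rose and FER1 fell (-1.02 ± 0.27, edgeR adjusted p = 0.0087), while over all genes 32.7% were called, 17.1% higher and 15.7% lower. Of the marker lists, 9 of 12 root markers were lower at 24 h than at 2 h in Col and 2 of 10 shoot markers higher, with list medians of -1.69 and 0.69, and their part was not tested. In fls2 over the same times bHLH38, bHLH39, bHLH100 and bHLH101 were not called, at -0.34 ± 0.75, -0.62 ± 0.54, -0.29 ± 0.89 and -0.24 ± 1.24. FER1 fell by 1.46 ± 0.27 there (edgeR adjusted p = 0.0039), and its Col over fls2 difference changed by 0.45 ± 0.38 between the times (edgeR adjusted p = 0.54, and 0.0092 without fls2 library 3 at 24 h). These time comparisons share the Col and fls2 libraries with the genotype comparisons.

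At 10 h bHLH39 had 4.42, 3.62 and 9.41 CPM in stp1/4/13, 3.18, 7.65 and 10.0 CPM in Col, and 0.607, 0.814 and 0.481 CPM in fls2, with all libraries of stp1/4/13 and Col above the whole fls2 range. It was higher than in fls2 by 3.20 ± 0.54 in stp1/4/13 (edgeR adjusted p = 8.3e-05) and by 3.39 ± 0.53 in Col (edgeR adjusted p = 4.7e-05), calls kept under all 11 alternatives, while stp1/4/13 and Col differed by -0.18 ± 0.43 (edgeR adjusted p = 0.84). bHLH101 had too few counts at 10 h for the fit. It had 9, 6 and 36 counts in stp1/4/13, 5, 14 and 9 counts in Col, and 0 in all 3 fls2 libraries, which makes it at least 17.3-fold higher in stp1/4/13 and at least 9.32-fold higher in Col against a floor of 3 counts over the fls2 group. Without stp1/4/13 library 3, which held most of the counts, the bound in stp1/4/13 was 6.86-fold. Without fls2 library 3, which raises the floor, the bounds were 11.3-fold and 6.10-fold. bHLH38 was not called at 10 h (2.41 ± 1.15 for Col over fls2, edgeR adjusted p = 0.091). bHLH100 had at most 4 counts in any fls2 library and at most 28 in any library at that time.

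Across the 12 groups bHLH38 and bHLH100 followed each other most closely (Pearson r = 0.923 over group means of log2(CPM + 0.5)), and bHLH39 had r = 0.788 with bHLH38 and 0.800 with bHLH100. Within groups the libraries also varied together: over the deviations of 36 libraries from their group means, r was 0.782 for bHLH39 and bHLH101, 0.718 for bHLH39 and bHLH100, and 0.726 for bHLH39 and NAS4. Libraries of different groups may share a trial, and no test goes with these values. bHLH38 and bHLH39 are neighbours on chromosome 3, 1144 bases apart. Their longest shared run over the whole genes is 34 bases, so a read longer than that could not match both exactly. bHLH38 overlaps 386 bases of PIP5K4 on the other strand, whose mean at 24 h was 2.36 ± 0.904 CPM in Col and 3.38 ± 0.922 CPM in fls2, opposite in direction to bHLH38. bHLH101 overlaps 79 bases of GLU1, an abundant photorespiratory gene with 69.3 ± 14.2 CPM in Col and 110 ± 10.7 CPM in fls2 at 10 h. The libraries keep strand, but whether the counting did is not given in the sources used here.

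**Figure D3:**
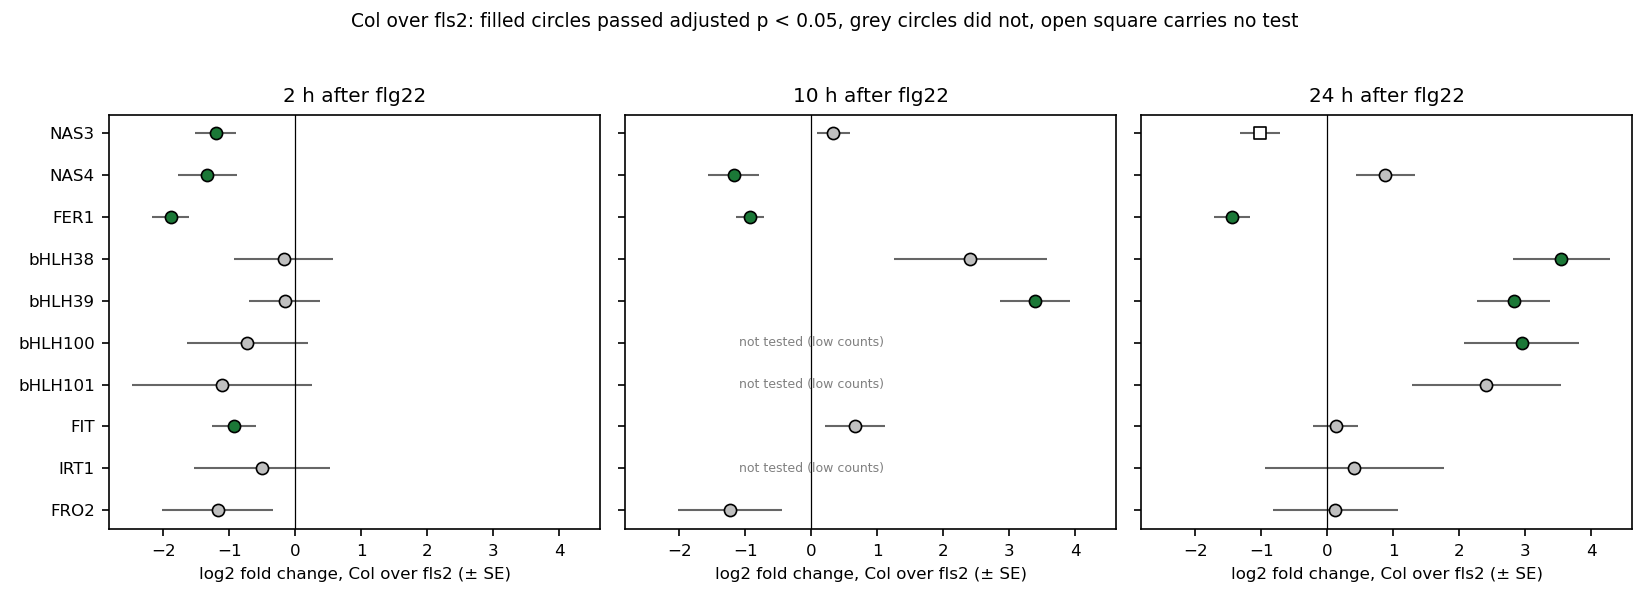
Log2 fold change of Col over fls2 (horizontal axis, ± SE, n = 3 libraries a group) for each gene at 2, 10 and 24 h. Green circles passed the adjusted threshold, grey circles did not, and the open square is NAS3 at 24 h, which carries no test. FER1 lies left of 0 at every time, and bHLH38, bHLH39 and bHLH100 lie right of 0 at 24 h.

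FIT (AT2G28160, chromosome 2, 12004658 to 12006276, plus strand), the root regulator with which the subgroup Ib proteins pair, was called in a comparison of Col with fls2 at 2 h and not later. At 2 h it had 1.87, 4.70 and 3.74 CPM in stp1/4/13, 1.12, 2.20 and 2.29 CPM in Col, and 4.06, 3.94 and 3.95 CPM in fls2. It was called lower in Col than in fls2 (-0.93 ± 0.34, edgeR adjusted p = 0.040), but 6 of 11 alternatives ended the call. These were the fit with no filter (0.062) and those without Col library 1 (0.17), Col library 2 (0.055) or fls2 library 1 (0.074), 2 (0.093) or 3 (0.063). At 10 and 24 h it was not called, at 0.66 ± 0.46 and 0.13 ± 0.34 (edgeR adjusted p = 0.24 and 0.83). In fls2 FIT was lower at 24 h than at 2 h (-1.02 ± 0.34, edgeR adjusted p = 0.042), again lost under 6 of 11 alternatives, 5 of them leaving out 1 library.

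IRT1 (AT4G19690, chromosome 4, 10707344 to 10709015) and FRO2 (AT1G01580, chromosome 1, 208995 to 213082), both on the plus strand and the uptake pair, varied widely between libraries of a group at 2 h. At 2 h IRT1 had 20.3, 27 and 2.63 CPM in stp1/4/13, 0.673, 20.03 and 0.816 CPM in Col, and 4.88, 14 and 14.8 CPM in fls2. FRO2 had 10.7, 12.7 and 1.16 CPM in stp1/4/13, 0.617, 3.93 and 0.663 CPM in Col, and 0.638, 6.84 and 5.30 CPM in fls2. In each genotype the library lowest in IRT1 was also the lowest in FRO2. All genotypes overlapped, and Col over fls2 was -0.51 ± 1.03 for IRT1 and -1.17 ± 0.84 for FRO2 (edgeR adjusted p = 0.74 and 0.31). Without Col library 2, the only high one of its group, IRT1 passed (edgeR adjusted p = 0.020, with 0.020 to 0.99 over the alternatives). Over 36 libraries the deviations of IRT1 and FRO2 from their group means had r = 0.660, and the 12 group means r = 0.609.

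After 2 h IRT1 was low in most libraries. At 10 h IRT1 had at most 3 counts in any stp1/4/13 or Col library and 1, 1 and 37 counts in fls2, and at 24 h its highest level was 0.730 CPM in stp1/4/13, 1.63 CPM in Col and 2.43 CPM in fls2. In fls2 24 h over 2 h was -3.74 ± 1.24 for IRT1 (edgeR adjusted p = 0.042). Leaving out fls2 library 1 or 3 at 24 h (0.16 and 0.091) or library 2 or 3 at 2 h (0.11 and 0.084) ended that call. In Col it missed the threshold (-2.82 ± 1.20, edgeR adjusted p = 0.079) and passed without library 1 or 3 at 2 h (0.045 and 0.046). Of the 10 members, 3 (FER1, FIT and IRT1) fell and 0 rose in fls2 over this time, against 19.8% called, 11.9% higher and 7.93% lower among all genes.

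**Figure D4:**
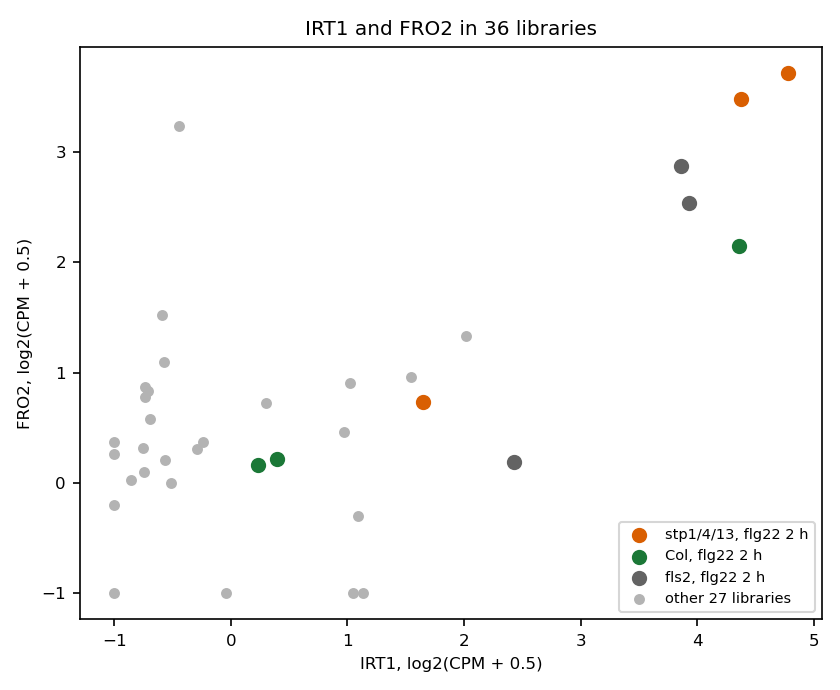
FRO2 (vertical axis) against IRT1 (horizontal axis), both as log2(CPM + 0.5), in 36 libraries (points). The 9 libraries of 2 h are coloured by genotype and include the highest IRT1 levels. In each genotype the 2 h library lowest in IRT1 is also the lowest in FRO2.

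Counted over the set, Col differed from fls2 in 4 of 10 members at 2 h, all lower (FER1, NAS3, NAS4 and FIT), where 34.8% of all genes were called, 18.7% higher and 16.1% lower. At 10 h it differed in 3 of the 7 with enough counts, 1 higher and 2 lower, against 51.3% called, 24.9% higher and 26.4% lower. The other 3 (bHLH100, bHLH101 and IRT1) did not pass the filter at 10 h. At 24 h, with NAS3 left out, 3 of 9 were higher and 1 lower, against 18.6% called, 11% higher and 7.59% lower. The sugar transporter mutant differed from Col in 0 of 10 members at 2 h by edgeR, where 47 genes, or 0.219%, were called. An unadjusted p under 0.05 was reached by 3 (FRO2, FIT and FER1), and DESeq2 called 0 as well. At 10 h stp1/4/13 differed from Col in 2 of 7 (NAS3 and FER1, both higher), against 12.5% called, 7.67% higher and 4.84% lower. Relative to fls2 it was lower in 2 of 10 at 2 h (NAS3 and FER1), against 25.6% called, 15.8% higher and 9.82% lower, and at 10 h differed in 3 of 7 (NAS3 and bHLH39 higher, NAS4 lower), against 52.2% called, 26.9% higher and 25.3% lower. At 24 h, where the set was chosen and no count is read, 9.01% of all genes were called for stp1/4/13 over Col (4.46% higher and 4.55% lower) and 19.9% over fls2 (11.5% higher and 8.39% lower). The comparisons with Col and with fls2 share libraries.

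The 12 root markers held genes of root hairs such as EXPA7 and COBL9, genes of the endodermis (CASP1, CASP2 and ESB1), PHO1, a phosphate exporter of the root vasculature, and PYK10, an abundant root glucosidase that made up 80.6 to 95.1% of the sum in each library. Their summed level at 2 h was 1102 to 1201 CPM in stp1/4/13, 1161 to 1297 CPM in Col and 1210 to 1445 CPM in fls2. At 10 h it was 698 to 871 CPM in stp1/4/13, 804 to 1048 CPM in Col and 1608 to 1950 CPM in fls2, with COBL9 at 0 in stp1/4/13 and AGP30 at 0 in Col. Without PYK10 the other 11 summed to 118 to 132 CPM in stp1/4/13, 105 to 131 CPM in Col and 203 to 252 CPM in fls2 at 10 h. The list did not move as one: in Col over fls2 at 10 h, 8 of 12 were lower, PHO1 was higher (0.85, edgeR adjusted p = 7.7e-05), and CASP1 (0.07), CASP2 (-0.53) and ESB1 (0.34) were not called (edgeR adjusted p = 0.85, 0.37 and 0.081). At 24 h it was 1036 to 1129 CPM in stp1/4/13, 669 to 1056 CPM in Col and 1229 to 1444 CPM in fls2, with 7 of 12 lower in Col and none of PYK10, PHO1 and the 3 endodermis genes called. bHLH39 stood higher in Col than in fls2 at both times, and the part of root RNA in the levels of bHLH39, IRT1, FRO2, FIT and NAS4 was not tested.

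**Figure D5:**
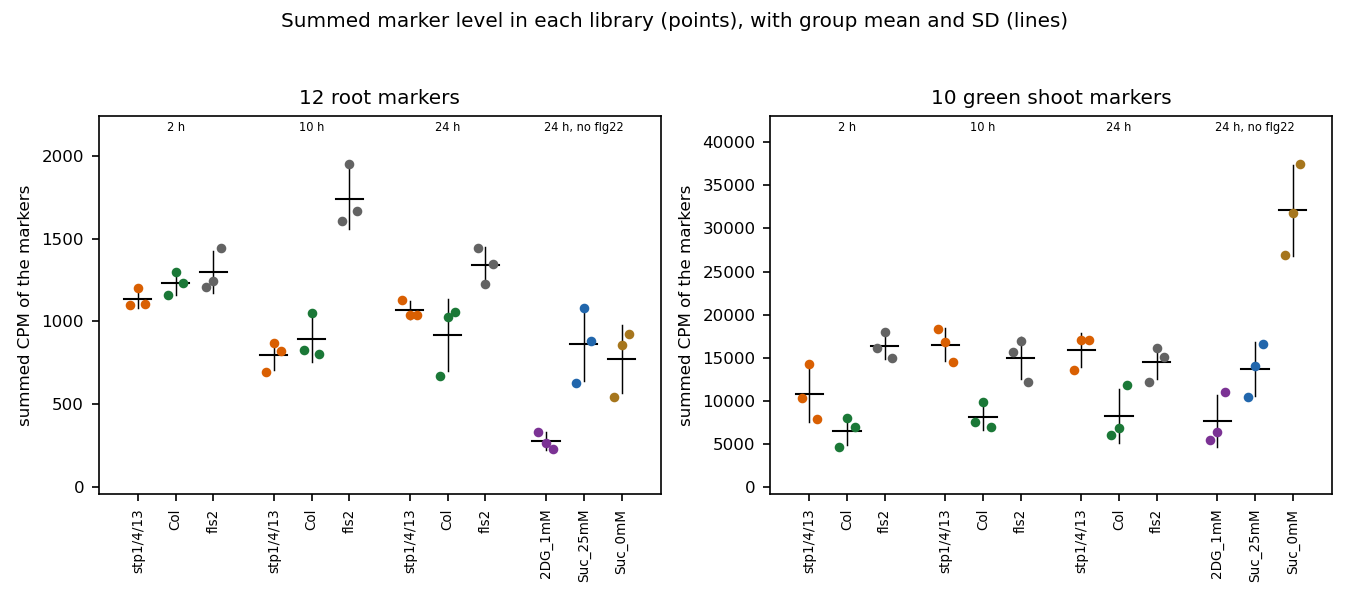
Summed level in CPM (vertical axes, linear) of 12 root markers (left) and 10 green shoot markers (right) in the 3 libraries of each group (points), with mean (horizontal line) and SD (vertical line). The root sum is mostly PYK10 (80.6 to 95.1%), and RBCS1A is the largest part of the shoot sum in every group. Root markers were lowest in 2DG_1mM and shoot markers highest in Suc_0mM.

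The sucrose and 2DG experiment asked how sugar supply and the glucose analogue change the same genes without flg22. FER1 fell with both: it had 122, 46.4 and 65.6 CPM in 2DG_1mM, 66.8, 78.8 and 51.8 CPM in Suc_25mM, and 202, 277 and 166 CPM in Suc_0mM. Every library of the first and second groups stood below those of Suc_0mM. The difference was -1.40 ± 0.35 for 2DG_1mM (edgeR adjusted p = 0.0057) and -1.82 ± 0.35 for Suc_25mM (edgeR adjusted p = 0.0060), and both were kept under all 12 alternatives, the grouping by treatment label included. Between 2DG_1mM and Suc_25mM FER1 differed by 0.42 ± 0.34 (edgeR adjusted p = 0.33).

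NAS3 had 72.5, 6.89 and 51.2 CPM in 2DG_1mM, 19.9, 21.0 and 19.2 CPM in Suc_25mM, and 62.1, 109 and 44.7 CPM in Suc_0mM. All Suc_25mM libraries lay below all Suc_0mM libraries, and 2DG_1mM library 2 stood far below the other two of its group. None of the comparisons passed for NAS3: -0.66 ± 0.60 for 2DG_1mM over Suc_0mM, -1.95 ± 0.62 for Suc_25mM over Suc_0mM and 1.29 ± 0.61 for 2DG_1mM over Suc_25mM (edgeR adjusted p = 0.38, 0.063 and 0.10). Suc_25mM over Suc_0mM passed with DESeq2 (adjusted p = 0.011), with no filter (0.030) and in a fit of the 2 groups alone (0.0042), with 0.0042 to 0.38 over the alternatives. 2DG_1mM over Suc_25mM passed without 2DG_1mM library 2 (edgeR adjusted p = 0.0017). NAS4 was not called in any of these comparisons, its largest difference being -0.65 ± 0.80 (edgeR adjusted p = 0.52).

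FRO2 and FIT had no count in the 3 libraries of 2DG_1mM. FRO2 had 0.745, 0.877 and 0.372 CPM in Suc_25mM and 2.38, 1.64 and 8.93 CPM in Suc_0mM, so it was at least 6.56-fold and at least 42.6-fold lower in 2DG_1mM, with a floor of 3 counts over that group (edgeR adjusted p = 0.016 and 0.0015). Without Suc_0mM library 3, the highest, the second bound was 19.8-fold, and without any 1 library of 2DG_1mM the bounds were 4.20 to 4.58-fold and 27.3 to 29.7-fold. FIT had 1.30, 0.584 and 0.497 CPM in Suc_25mM and 2.13, 0 and 1.01 CPM in Suc_0mM, which puts 2DG_1mM at least 7.85-fold and at least 10.3-fold lower (edgeR adjusted p = 0.039 and 0.027). The bound against Suc_0mM was 4.98-fold without Suc_0mM library 1 and 15.5-fold without library 2, and without any 1 library of 2DG_1mM the bounds were 5.02 to 5.48-fold and 6.61 to 7.21-fold. The FIT calls rest on few counts: leaving out any of the 6 libraries ended the one against Suc_25mM (0.064 to 0.097), and any but Suc_0mM library 2 ended the one against Suc_0mM (0.055 to 0.076). With the replicate number as a block they had edgeR adjusted p = 0.055 and 0.058. bHLH39 had 0, 0 and 1 count in 2DG_1mM, against 10, 13 and 18 in Suc_25mM and 3, 5 and 29 in Suc_0mM. It differed by -4.84 ± 1.46 from Suc_25mM and by -4.44 ± 1.46 from Suc_0mM (edgeR adjusted p = 0.017 and 0.025), and leaving out 2DG_1mM library 1 or 2 ended both calls (0.053 and 0.073). Leaving out Suc_25mM library 3 ended the call against that group (0.060), and leaving out Suc_0mM library 3 the call against Suc_0mM (0.15). In a fit of 2DG_1mM and Suc_25mM alone, FRO2, FIT and bHLH39 did not pass the filter for low counts and were not tested. FIT and bHLH39 did not pass it in a fit of 2DG_1mM and Suc_0mM alone either. In the main fit those tests depend on counts of the third group to pass the filter.

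In all, 2DG_1mM was lower than Suc_0mM in 4 of the 7 members with enough counts (all but bHLH38, bHLH100 and bHLH101), against 49.2% of all genes called, 21.3% higher and 27.9% lower, and the median of all genes was itself at -0.21. It was lower than Suc_25mM in 3 of 7, against 49.3% called, 21.4% higher, 28% lower and a median of all genes at -0.23. Suc_25mM was lower than Suc_0mM in 1 of 7, FER1, against 12.5% called, 6.41% higher and 6.08% lower. FRO2 missed the threshold there (-2.82 ± 0.98, edgeR adjusted p = 0.097). It passed with DESeq2 (adjusted p = 0.031) and in an edgeR fit of those 2 groups alone (adjusted p = 0.036). In that comparison 0 of 12 root markers were called, with a list median of 0.53. Root markers summed to 228 to 335 CPM in 2DG_1mM, 630 to 1082 CPM in Suc_25mM and 542 to 926 CPM in Suc_0mM, with 11 of 12 lower in 2DG_1mM than in Suc_0mM and EXPA7 and RSL4 at 0. Shoot markers summed to 5454 to 11053 CPM in 2DG_1mM, 10401 to 16610 CPM in Suc_25mM and 26967 to 37472 CPM in Suc_0mM, with 10 of 10 lower in 2DG_1mM and 8 of 10 lower in Suc_25mM than in Suc_0mM. FRO2, FIT and bHLH39 were low where root markers were low, but not all root iron genes were. IRT1 had positive differences in 2DG_1mM, 2.69 ± 1.33 over Suc_0mM and 1.36 ± 1.25 over Suc_25mM. Neither was called (edgeR adjusted p = 0.12 and 0.39). bHLH38 and bHLH100, with too few counts for the fit, had means in 2DG_1mM between those of Suc_25mM and Suc_0mM. FER1 was lower than in Suc_0mM in both groups, as shoot markers were. In 2DG_1mM over Suc_25mM 7 of 10 shoot markers were lower (list median -1.80), but FER1 (0.42 ± 0.34) and NAS3 (1.29 ± 0.61) were not called. The part of either marker list was not tested.

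Under the treatment labels, 2DG_1mM and Suc_25mM change places. Then the group without FRO2 and FIT counts is the one given 25 mM sucrose, bHLH39 in 2DG_1mM over Suc_0mM is 0.40 (edgeR adjusted p = 0.88), and FRO2 there is called no longer (edgeR adjusted p = 0.097). FER1 was lower than in Suc_0mM in both groups, whichever label is right. The ferritin genes FER3 and FER4 turn to 0.41 and 0.37 in 2DG_1mM over Suc_0mM.

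A wider list of 42 iron genes, with 11 further written symbols left out because RefSeq does not pair them with a locus, set the members in context. Col over fls2 had 7 higher and 10 lower of 38 tested at 2 h, 15 higher and 8 lower of 36 at 10 h, and 8 higher and 4 lower of 38 at 24 h. Over all genes 18.7% were higher and 16.1% lower at 2 h, 24.9% and 26.4% at 10 h, and 11% and 7.59% at 24 h. The list's median log2 fold change was 0.04, 0.25 and 0.23, beside -0.02, -0.07 and 0.01 for all genes. YSL3, a transporter of metal and nicotianamine complexes, had 206, 201 and 258 CPM in Col and 33.7, 26.2 and 61.9 CPM in fls2 at 2 h. It was higher in Col by 2.63 ± 0.30 at 2 h (edgeR adjusted p = 1.9e-06) and 2.59 ± 0.15 at 10 h (edgeR adjusted p = 5.4e-10). ABCG37, an exporter of iron-mobilising coumarins, was higher in Col by 4.16 ± 0.19 at 10 h (edgeR adjusted p = 3.1e-11) and 1.59 ± 0.23 at 24 h (edgeR adjusted p = 8.1e-05). The proton pump gene AHA2 was higher by 1.66 ± 0.11 at 10 h (edgeR adjusted p = 2.5e-09).

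In the other direction, FRO7, a chloroplast ferric reductase gene, stood at -3.63 ± 0.44 in Col over fls2 at 2 h (edgeR adjusted p = 3.6e-06). It had 0.224, 0.524 and 0.102 CPM in Col and 3.71, 4.21 and 3.95 CPM in fls2. NEET, which encodes an iron-sulfur protein, stood at -2.38 ± 0.41 at 24 h (edgeR adjusted p = 0.00046). Of the 10 shoot markers, 9 were called lower in Col than in fls2 at 2 h, but only 1, RBCS1A, at 24 h, and their part was not tested. All calls of this list named here for Col over fls2, except FER4 at 24 h, were kept under all 11 alternatives.

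At 10 h stp1/4/13 over Col had 4 of 36 listed genes higher and 1 lower, with a list median of 0.06 beside 0.00 for all genes, of which 7.67% were higher and 4.84% lower. FRO6, a ferric reductase gene of green tissue, was higher by 4.59 ± 0.70 and NEET by 1.84 ± 0.41, and the coumarin enzyme gene F6'H1 was lower by 0.78 ± 0.15, a log2 fold change of -0.78 (edgeR adjusted p = 0.00046, 0.0074 and 0.0031). In the same comparison 9 of 10 shoot markers were higher, with a list median of 1.19, and their part was not tested. FER3 was higher by 0.50 ± 0.16 (edgeR adjusted p = 0.047), lost under 8 of 11 alternatives, the replicate number as a block among them (0.062). At 2 h 1 of 38 was called, against 0.219% of all genes, FRO7 (2.41 ± 0.46, edgeR adjusted p = 0.032), lost under 4 of 11 alternatives, among them leaving out Col library 1 (0.22) or 3 (0.15). Relative to fls2 the mutant had 6 higher and 7 lower of 38 at 2 h and 15 higher and 6 lower of 36 at 10 h, against 15.8% higher and 9.82% lower of all genes at 2 h and 26.9% and 25.3% at 10 h. YSL3 was among the higher genes at 2 h (2.45 ± 0.30, edgeR adjusted p = 6.3e-06) and 10 h (2.51 ± 0.15, edgeR adjusted p = 6.8e-10), and so was the vacuolar iron exporter gene NRAMP3 at 10 h (3.00 ± 0.20, edgeR adjusted p = 2.0e-09).

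With sugar, the list had 3 higher and 13 lower of 35 in 2DG_1mM over Suc_0mM, with a list median of -0.72 beside -0.21 for all genes, and 4 higher and 4 lower of 35 in Suc_25mM over Suc_0mM. Over all genes 21.3% were higher and 27.9% lower in 2DG_1mM, and 6.41% and 6.08% in Suc_25mM. ABCG37 (3.12 ± 0.31) and F6'H1 (2.59 ± 0.31) were higher in 2DG_1mM than in Suc_0mM, and the phloem iron transporter gene OPT3 was lower (-5.38 ± 0.69) (edgeR adjusted p = 1.6e-05, 5.5e-05 and 8.5e-05). OPT3, whose call ended under the treatment labels (0.13), had 2.53, 0.300 and 3.02 CPM in 2DG_1mM and 56.2, 45.1 and 146 CPM in Suc_0mM. FER3 (-1.89 ± 0.45) and FER4 (-1.68 ± 0.38) were lower in 2DG_1mM too (edgeR adjusted p = 0.0047 and 0.0037). In this comparison 11 of 12 root markers and 10 of 10 shoot markers were also lower, and their part was not tested. F6'H1 was higher in Suc_25mM than in Suc_0mM (1.97 ± 0.31, edgeR adjusted p = 0.0022), and bHLH104, a regulator upstream of subgroup Ib, was lower (-1.25 ± 0.22, edgeR adjusted p = 0.0037). FRO7 was lower there by 3.34 ± 0.75, a log2 fold change of -3.34 (edgeR adjusted p = 0.014), lost without Suc_0mM library 3 (0.055) or any of the Suc_25mM libraries (up to 0.066). Of the ferritin genes, FER3 and FER4 were lower in 2DG_1mM than in Suc_25mM (-2.30 ± 0.46 and -2.04 ± 0.39, edgeR adjusted p = 0.0016 and 0.0012), and FER1 was not called.

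Between 24 h and 2 h in Col, 13 of 38 listed genes were higher and 9 lower, against 17.1% and 15.7% of all genes, and the list median was 0.22 beside 0.03 for all genes. Root markers fell over the same time as given for the bHLH genes. FRO7 stood at 3.43 ± 0.44, ABCG37 at 1.72 ± 0.23 and AHA2 at -1.59 ± 0.22 (edgeR adjusted p = 2.9e-05, 4.3e-05 and 5.4e-05). In fls2 5 were higher and 3 lower, against 11.9% and 7.93% of all genes, with BTS, a ubiquitin ligase that limits the iron deficiency response, at 1.26 ± 0.21 and NAS1 at -1.69 ± 0.32 (edgeR adjusted p = 0.0027 and 0.0044). The Col over fls2 difference changed between 2 h and 24 h for 6 of 38 listed genes, 4 positive and 2 negative, against 4.5% and 6.04% of all genes. Among the 6 were FRO7 (3.07 ± 0.56), NAS1 (2.15 ± 0.45) and NRAMP3 (1.73 ± 0.35) (edgeR adjusted p = 0.0017, 0.0052 and 0.0038). NAS1, like NAS4, was low in Col at 2 h, with 15.1, 16.6 and 29.4 CPM in Col and 94.4, 65.8 and 102 CPM in fls2.

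Zinc shares nicotianamine and in part IRT1 with iron, and of 8 zinc transporter genes 6 had enough counts. ZIP5 had 66.3, 59.7 and 70.3 CPM in Col and 5.69, 4.54 and 3.89 CPM in fls2 at 2 h, a difference of 3.95 ± 0.30 (edgeR adjusted p = 1.1e-08). ZIP9 was higher in Col by 3.15 ± 0.45 at 2 h (edgeR adjusted p = 2.4e-05). These were 2 of 6 at 2 h, where 18.7% of all genes were higher. At 10 h both were higher again, ZIP5 by 2.83 ± 0.16 and ZIP9 by 2.55 ± 0.38 (edgeR adjusted p = 3.3e-10 and 2.4e-05), and at 24 h 3 of 6 were, ZIP5 by 1.98 ± 0.28, ZIP1 by 1.00 ± 0.21 and ZIP9 by 1.5 ± 0.47 (edgeR adjusted p = 8.1e-05, 0.0026 and 0.031), the last lost under 5 of 11 alternatives. Over all genes 24.9% were higher at 10 h and 11% at 24 h. Against fls2, stp1/4/13 had ZIP5 higher by 3.78 ± 0.29 at 2 h and 2.54 ± 0.16 at 10 h (edgeR adjusted p = 2.7e-08 and 9.3e-10). ZIP9 was higher too, by 3.33 ± 0.45 and 2.68 ± 0.38 (edgeR adjusted p = 2.2e-05 and 1.3e-05). ZIP3 was lower at 10 h (-0.84 ± 0.28, edgeR adjusted p = 0.017), lost under 2 of 11 alternatives. In all 2 of 6 were higher at 2 h, against 15.8% of all genes. At 10 h 3 of 6 were higher and 1 lower, against 26.9% and 25.3%. In 2DG_1mM over Suc_0mM 3 of 6 were lower, against 27.9% of all genes, ZIP3 at -7.02 ± 0.69, ZIP1 at -3.44 ± 0.44 and ZIP5 at -3.75 ± 0.85 (edgeR adjusted p = 1.5e-05, 7.7e-05 and 0.0036), none of which passed under the treatment labels (0.22 to 0.78). In Suc_25mM over Suc_0mM 1 of 6 was lower, against 6.08% of all genes, IRT3 (-2.02 ± 0.41, edgeR adjusted p = 0.0077).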

How the data were processed

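Strand-specific 3′ libraries, 36 in all, were made by the BrAD-seq method with 500 ng RNA each and no tissue separated (per the labels' protocols). The submitters used fastp 0.19.7, STAR 2.6.1b and featureCounts 1.6.0 with TAIR10, per the submitters' processing notes. The authors deposited raw counts of reads per locus in 2 tables, each with 32833 loci. Plants grew at 22 °C in 16 h of light, were moved to liquid at 6 days and treated a day later.

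From the deposited counts, CPM was computed on the total count of each library (8054500 to 20111338). Differences were tested with edgeR 4.0.16 (R 4.3.3, limma 3.58.1), by TMM scaling, filterByExpr, the quasi-likelihood test and Benjamini-Hochberg adjustment at 0.05, in 3 fits: 2 and 24 h, 10 h, and sugar. The script was tested on simulated data. Alternatives were DESeq2 1.42.0, RLE scaling, no filter, the replicate number as a block, only the compared groups, leaving out each library, and groups from the treatment label. Bounds against a group at 0 use a floor of 3 counts over that group and cover counting error only. No 2 libraries of a group were identical.

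The members, gene lists and markers were chosen with earlier results of these data known. Genes named are all members, FLS2 and the STP genes, up to 3 genes per comparison with the smallest adjusted p from the wider iron and the zinc lists, and the 5 most like NAS3. FER3 and FER4 outside that rule, and FER2 and NAS1 at 2 h, were named after their values were seen. Replicate numbers come from the labels, and the design text names 3 independent trials without saying which number belongs to which. Same-numbered libraries deviated from their group means with a median correlation of 0.300 at 2 h (0.0202 to 0.427), 0.0433 at 10 h (-0.155 to 0.142), 0.406 at 24 h (0.0625 to 0.697) and 0.0629 in the sugar libraries (-0.0257 to 0.337). Coordinates and upstream sequences are RefSeq's TAIR10.1.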

Additional observations from a re-analysis of the deposited data

Results flagged for a closer look

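For 3 of the 9 genes that carry this test the difference between Col and fls2 after flg22 itself differed between 24 h and 2 h, tested as an interaction in edgeR over 3 libraries a group. The change in log2 fold change was 3.72 for bHLH38, 2.98 for bHLH39 and 2.21 for NAS4 (edgeR adjusted p = 0.026, 0.017 and 0.030). It passed under 12, 15 and 9 of 17 alternatives.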

How the results depend on the processing

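Of 37 calls made for the 10 genes, 19 were kept under every alternative run, 17 were lost under at least 1 and 4 were reversed by taking groups from the treatment label. Under that label bHLH39 was 0.40 in 2DG_1mM over Suc_0mM, and bHLH39, FIT and FRO2 were 4.84, 6.0 and 5.76 in 2DG_1mM over Suc_25mM. FER3 and FER4 were 0.41 and 0.37 over Suc_0mM and 2.30 and 2.04 over Suc_25mM, and bHLH104 and IRT3 were 0.027 and 0.22 in Suc_25mM over Suc_0mM. These follow from the 2 groups changing places. So do the counts of genes called over all genes, 2463 for 2DG_1mM and 9697 for Suc_25mM over Suc_0mM, and of members, 1 lower for 2DG_1mM and 4 lower for Suc_25mM over Suc_0mM, and 3 higher and 0 lower for 2DG_1mM over Suc_25mM.

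In fits of the compared groups alone, 2090 genes were called for Col over fls2 at 24 h, 27 and 184 for stp1/4/13 over Col at 2 and 24 h, and the members lower were 2 for 2DG_1mM over Suc_0mM, 3 for Suc_25mM over Suc_0mM and 0 for 2DG_1mM over Suc_25mM. DESeq2 called 216 genes for stp1/4/13 over Col at 2 h. The replicate number as a replicate block, where the numbers come from the labels, called 126 and 3227 genes for stp1/4/13 over Col at 2 and 24 h. DESeq2 and the fit with no filter each called 2 members higher for Col over fls2 and 4 higher for stp1/4/13 over fls2 at 10 h, and 3 and 2 lower for Suc_25mM over Suc_0mM. For stp1/4/13 over Col at 10 h, 1 member (NAS4) was lower with DESeq2, no filter, only the compared groups, RLE or the block, against 0. The members lost in the 2DG_1mM fits of compared groups alone (FRO2, FIT and bHLH39) did not pass the filter there. The members added at 10 h with no filter had not passed it in the main fit. They were bHLH101 for Col over fls2 (6.22 ± 1.61, edgeR adjusted p = 0.0011), and bHLH101 and bHLH100 for stp1/4/13 over fls2. IRT1, likewise left out by the filter, was then lower in Col than in fls2 (-4.01 ± 1.48, edgeR adjusted p = 0.024). The cause of the other changes was not tested. The calls that the block changed are given beside their genes, apart from NAS4 at 24 h over 2 h in fls2 (edgeR adjusted p = 0.044 with the block and 0.058 without).

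Leaving out each library in turn, the genes called ranged from 8 to 56 for stp1/4/13 over Col at 2 h (47 with all libraries), 1307 to 1708 at 10 h (2447) and 450 to 3740 at 24 h (1934), 1277 to 2214 for Suc_25mM over Suc_0mM (2463), and 750 to 5431 for 24 h over 2 h in fls2 (4245). Members called ranged, for Col over fls2, from 2 to 4 lower at 2 h, and 1 to 2 higher and 1 to 2 lower at 10 h. For stp1/4/13 they ranged from 1 to 2 higher and 0 to 1 lower over Col at 10 h, and 1 to 2 lower at 2 h and 2 to 4 higher at 10 h over fls2. They ranged from 2 to 4 lower for 2DG_1mM over Suc_0mM, 0 to 1 higher and 1 to 2 lower for 2DG_1mM over Suc_25mM, 1 to 2 lower for 24 h over 2 h in Col, 1 to 3 lower in fls2, and 0 to 4 for the interaction. With TMM-scaled CPM, 3 of 120 group levels moved by more than 1 SD. Lower bounds without each library, and the root marker sum without PYK10, were added after seeing the data, and the reported bounds that moved by over 1.5 times are given beside their genes. bHLH101 had few counts in most libraries, and FIT in the sucrose and 2DG libraries, which limits the precision of their values.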
